A study of Mus musculus with 14 samples.

Results

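The cytosolic ribosomal protein genes were followed across control, low-dose and high-dose livers of mice exposed to furan. Members were chosen by gene symbol after the array accessions were matched to RefSeq: symbols of the form Rpl, Rps or Rplp followed by a number, with an optional letter and a further number, were taken. The array held 82 such genes on 167 probes. Of these, 79 genes (160 probes) passed the filter on dim probes and were tested among 21976 features, 13773 of them with a symbol. By class, 43 tested genes encode large subunit proteins, 29 small subunit proteins and 3 proteins of the P stalk. The other 4, Rps27l, Rpl22l1, Rpl7l1 and Rps4l, are paralogs or like-named genes, and RefSeq lists Rps4l as a transcribed pseudogene. Rpl10l, Rpl39l and Rpl3l were not well above background in the liver channel on any array and were not tested. The naming rule used no measured value.

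All animals were female B6C3F1 mice, a C57BL/6 by C3H hybrid, labelled as 5 to 6 weeks old. The control group (n = 4) was gavaged with corn oil, and the other groups received furan at 1 mg/kg (n = 5) or 8 mg/kg (n = 5) of body weight for 21 days. Every mouse, controls included, also drank BrdU, a thymidine analogue that marks replicating DNA, during the last 5 days, and livers were taken 4 h after the last dose. On every array the liver RNA carried Cy5 and a reference RNA common to all arrays carried Cy3, so each value is a log2 ratio of liver to the common reference. The 14 arrays lay on 5 slides, of which slides 1 to 4 held all 3 groups and slide 5 held 1 array at each furan dose. Furan is a hepatotoxicant that liver enzymes convert to a reactive aldehyde. The submitters describe the mice of each dose as biological replicates.

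The ribosome is built from a small subunit, which decodes the mRNA, and a large subunit, which joins amino acids. Ribosomal protein mRNAs usually begin with a terminal oligopyrimidine (TOP) tract, through which the growth-regulating kinase mTOR controls their translation, and they are among the most abundant mRNAs of the hepatocyte. Some ribosomal proteins act outside the ribosome: Rpl5 and Rpl11 bind MDM2, the ubiquitin ligase of p53, and Rps27l, a close relative of Rps27, is a known p53 target gene.

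Promoter sequences of the members, Rps27l among them, were searched for 3 letter strings near their starts. Promoters from RefSeq (GRCm38.p6) matched 61 of the 82 members. In windows of 300 bases, 250 before to 50 after the start, CCGGAAG (an ETS-type core) was found on either strand in 25 of 61 members (41.0%), against 9.93% of all 27025 genes with a promoter. CTCTTTC, a pyrimidine run, was found in 17 members (27.9%, against 9.28%), and AAGATGGC, a YY1-type core, in 6 members (9.84%, against 3.19%). No motif contains another, and a match is a match of letters only. The comparison with all genes was not matched for base composition or number of starts. The following windows run from 60 bases before to 40 bases after the first listed start, in the direction of the gene, with any of the 3 motifs in capitals. They are shown for Rps27l, Rpl19 and Rps21, which carry CCGGAAG or its complement there, and for Rps27 and Rpl12, with which Rps27l is compared in the results.
Rps27l (chr9:66946026-66946125, plus strand): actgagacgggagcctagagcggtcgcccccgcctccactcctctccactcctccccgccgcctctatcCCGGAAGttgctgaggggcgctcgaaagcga
Rps27 (chr3:90213609-90213708, minus strand): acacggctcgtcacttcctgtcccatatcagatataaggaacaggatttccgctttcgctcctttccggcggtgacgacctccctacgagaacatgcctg
Rpl12 (chr2:32961652-32961751, plus strand): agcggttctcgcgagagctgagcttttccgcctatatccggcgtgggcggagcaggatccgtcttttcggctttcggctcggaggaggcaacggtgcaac
Rpl19 (chr11:98026650-98026749, plus strand): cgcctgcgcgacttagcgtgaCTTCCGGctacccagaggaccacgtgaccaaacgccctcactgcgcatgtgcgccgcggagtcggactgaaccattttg
Rps21 (chr2:180257319-180257418, plus strand): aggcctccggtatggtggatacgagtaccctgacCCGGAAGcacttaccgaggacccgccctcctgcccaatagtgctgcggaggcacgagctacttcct
CCGGAAG thus stood near the first listed start of Rps27l and of Rps21. They are the members with the highest and the lowest fitted difference at 8 mg/kg. At their second listed starts the same window held none of the 3 strings, and at that of Rpl19 it held CTCTTTC. The windows of Rpl22 and Rpl22l1, not shown, held none. In Rps27 and Rpl12 none of the 3 letter strings was found in the window shown, though the 300-base window of Rps27 holds AAGATGGC.

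Across the series, the liver channel of an array had 23065 to 29850 of 55681 probes well above background, and no spot was saturated. Arrays of a group correlated at 0.977 to 0.989 over features. Hepatocyte markers such as Alb and Ttr fitted the tissue label, with a list mean of 6.14 to 7.78 (log2 ratio) over the arrays. The 3 arrays of slide 3 stood apart, with hepatocyte list means of 7.55 to 7.78 against 6.14 to 6.75 on the other slides, so the reported fit has slide as a block. The number of arrays limits the precision of all differences.

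Most ribosomal protein genes had a lower signal in liver than in the reference, relative to the other genes of the array. Liver carried Cy5 on every array, so a dye effect and a difference in abundance cannot be told apart. The size depended on normalization. The mean of the control array medians was -1.20 here, -0.45 with processed signals and -0.72 with the authors' deposited ratios. With median centring it was -1.80, where the medians of all features in controls were also negative. On all 14 arrays 73 of 79 members lay below the reference, and 3 members lay above it: Rps27l, Rpl7l1 and Rps4l. The control means ran from a log2 ratio of -2.03 for Rpl36a to 0.09 for Rps2 among members other than these 3. Rps27l averaged 0.78 ± 0.17 (SD, n = 4), Rpl7l1, a ribosome assembly factor, 0.49 ± 0.09, and Rps4l 3.75 ± 0.91 in controls. Ratios of different probes are not compared further, since each probe has its own response.

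The median log2 ratio over the 79 members gives each array 1 value. It was -1.49, -1.09, -0.92 and -1.31 in control replicates 1 to 4. At 1 mg/kg it was -1.07, -1.21, -1.20, -0.87 and -0.93 in replicates 1 to 5. At 8 mg/kg it was -1.00, -0.83, -1.23, -1.07 and -0.89 in replicates 1 to 5. Controls 1 and 4 were the lowest arrays, control 3 lay among the highest, and the 3 groups overlapped. The group means were -1.20 ± 0.25 (SD, n = 4), -1.06 ± 0.15 (n = 5) and -1.00 ± 0.16 (n = 5). Control replicate 1 was the lowest control for 72 of 79 members.

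**Figure D1:**
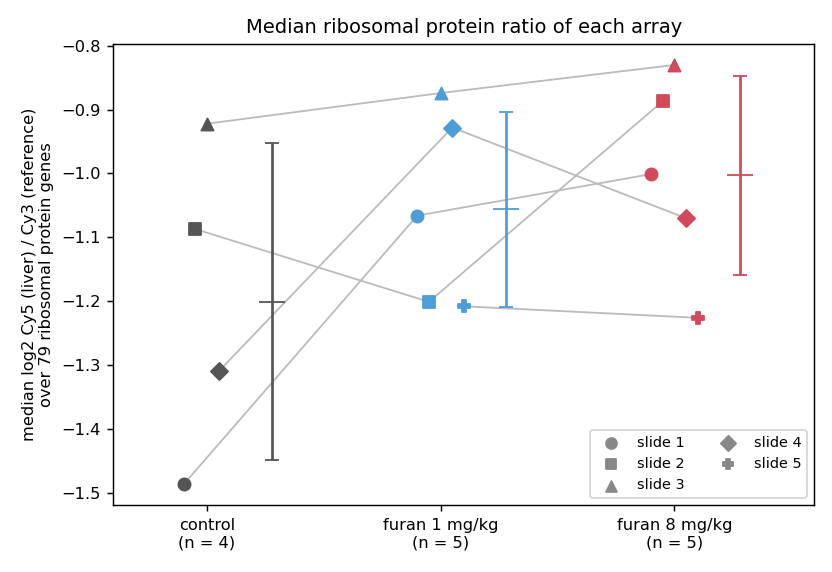
Median log2 Cy5/Cy3 ratio over 79 ribosomal protein genes for each array (points, shape by slide, arrays of a slide joined by lines), with the mean and SD of each group beside the points. The groups overlap, and the lowest array is the control on slide 1 at -1.49.

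At 8 mg/kg furan, 6 members rose against control and none fell; Rps27l, Rpl12, Rps14, Rpl19 and Rpl7 are described here. This is 6 of 79 members (7.59%) at an adjusted p under 0.05 (limma), against 4.09% of all features called in either direction, 2.73% called higher and 1.36% called lower. The calls of Rpl12, Rps14, Rpl19 and Rpl7 had adjusted p-values of 0.032 to 0.0445, whereas that of Rps27l was 0.00157. Without control replicate 1, 2 or 4, or without 8 mg/kg replicate 1 or 5, Rps27l was the 1 member called; without either array of slide 5 (1 mg/kg replicate 2 or 8 mg/kg replicate 3) 3 were called. The other 73 members did not pass the test, but 77 of 79 had a fitted difference above 0, against 50.5% of all features. At an unadjusted p under 0.05, 43 members were higher and 0 lower, against 11.6% of features higher and 8.75% lower. The member median was 0.23 (quartiles 0.18 and 0.30), beside 0.00 for all features. Within slides 1 to 4 the member median was 0.48, 0.20, 0.09 and 0.21. In 60 of 79 members the 8 mg/kg array was higher than the control array on each of the 4 slides, against 14.4% of all features. Every 8 mg/kg array lay above every control array in 2 of 79 members, Rpl12 and Rpl7l1, against 3.46% of features. After group and slide were fitted, the residuals of the members moved together, with a median pair correlation of 0.80. Counts of members, here and in the other comparisons, are therefore not independent pieces of evidence.

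The size of the member median depended on how the arrays were normalized. The values above came from background-corrected (normexp) and loess-normalized ratios. With the scanner software's own processed signals the member median at 8 mg/kg was 0.04 and 53 of 79 members were above 0. With the authors' deposited ratios it was 0.10 with 66 members above 0, and with the liver channel alone 0.10 with 62 above 0. With median centring it was 0.28, but the median of all features was then 0.14, a difference of 0.14 between them. Without control replicate 1 the median was 0.16. In the liver channel alone, after quantile normalization between arrays, the member medians were 15.04 to 15.18 in controls, 15.10 to 15.26 at 1 mg/kg and 15.21 to 15.28 at 8 mg/kg (log2 intensity). In that setting the 8 mg/kg arrays lay above the control arrays without overlap and overlapped the 1 mg/kg arrays. The medians of all features there were 8.27 to 8.29, so the members were bright. The shares and medians of the members were not compared with those of features of like brightness.

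**Figure D2:**
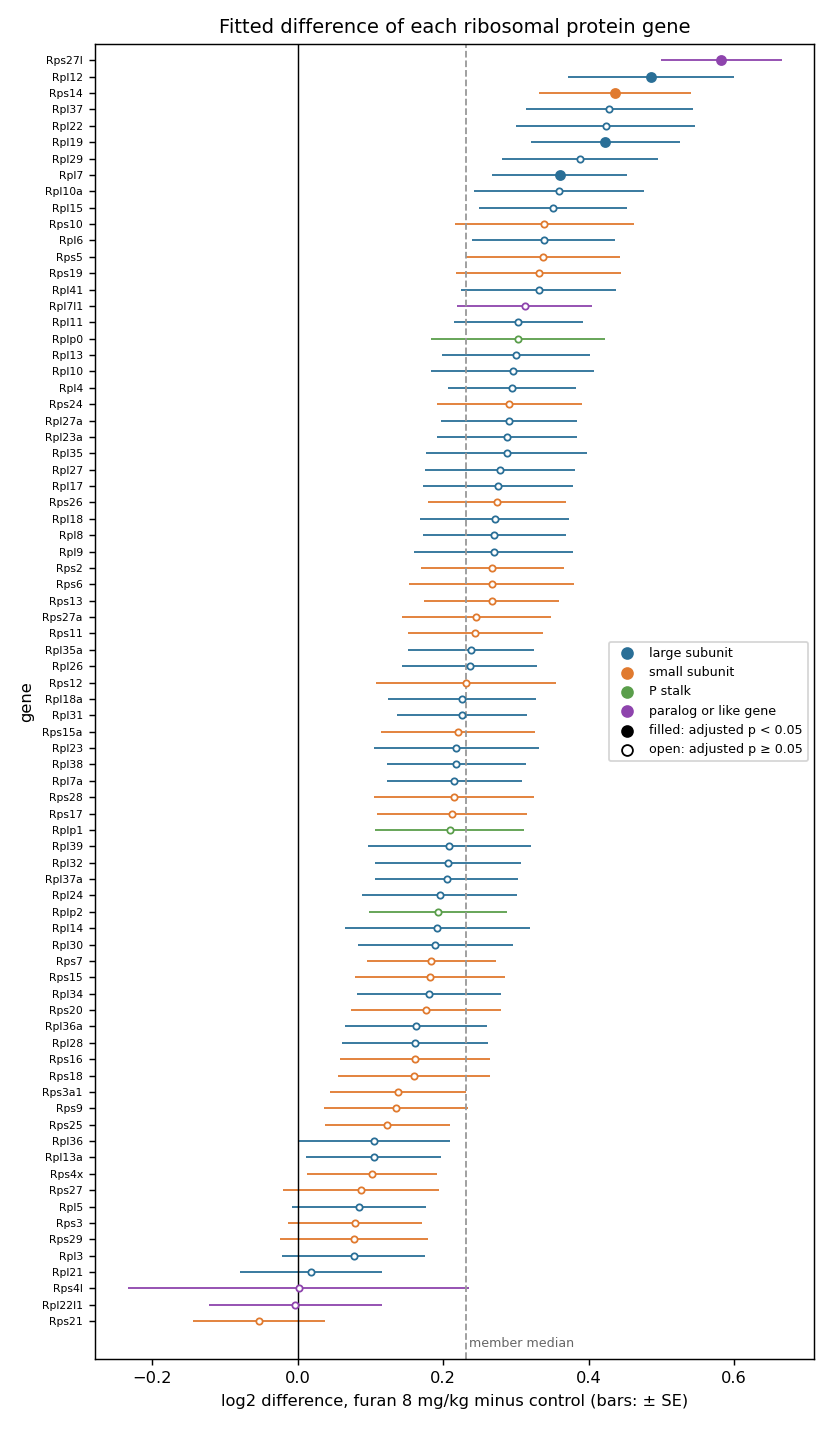
Fitted log2 difference, furan 8 mg/kg minus control, with its SE, for 78 of the 79 tested members, coloured by class. The 5 filled points are genes with an adjusted p under 0.05, the dashed line is the median of 0.23 over all 79 members, and 76 of 78 points lie above 0.

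**Figure D3:**
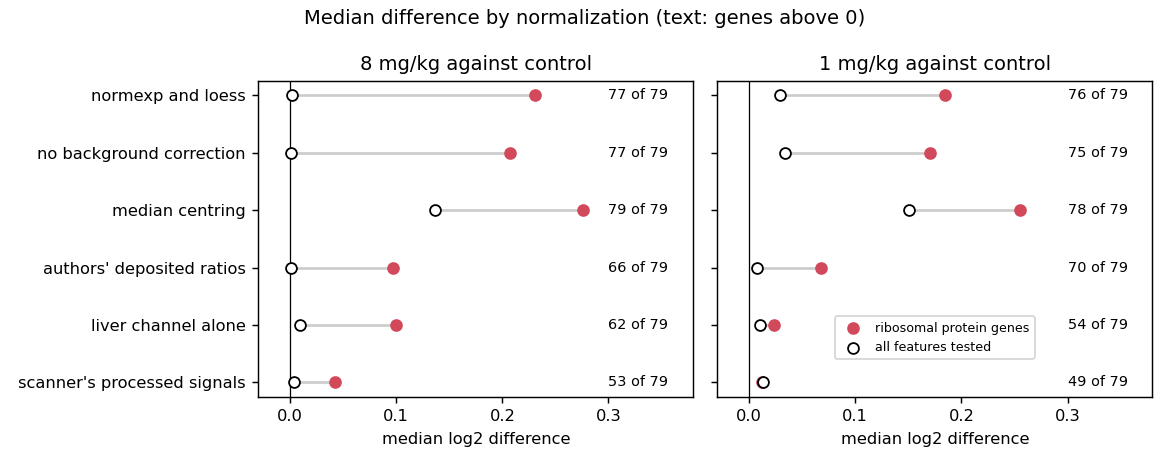
Median log2 difference of the ribosomal protein genes (red) and of all features tested (open) under 6 normalizations, for 8 mg/kg (left) and 1 mg/kg (right) against control, with the number of members above 0 printed beside each. The member median at 8 mg/kg ran from 0.04 with processed signals to 0.28 with median centring, where the median of all features moved to 0.14.

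Rps27l was the member with the largest difference at 8 mg/kg, and among the 6 members called it kept its call under the most of the 31 alternatives run. Its log2 ratio was 0.63, 0.80, 1.01 and 0.68 in control replicates 1 to 4. At 1 mg/kg it was 0.86, 0.57, 0.88, 1.01 and 1.04 in replicates 1 to 5. In the 8 mg/kg group it was 1.37, 1.46, 0.94, 1.28 and 1.36. There, 4 of 5 arrays lay above every control and every 1 mg/kg array, and the remaining one, replicate 3 on slide 5, lay within their range. Its partner on that slide, 1 mg/kg replicate 2, had the lowest value of all 14 arrays. The fitted difference was 0.58 ± 0.08 (SE) on the log2 scale, or 1.50-fold, against control (adjusted p = 0.00157). Within slides 1 to 4 it was 0.75, 0.55, 0.45 and 0.60. Against 1 mg/kg the difference was 0.41 ± 0.08 (adjusted p = 0.00858), with 0.52, 0.47, 0.45, 0.24 and 0.37 on slides 1 to 5. At 1 mg/kg against control it was 0.17 ± 0.08 (adjusted p = 0.723). Under the scanner's processed signals the difference against control was 0.45 (adjusted p = 0.0191), with the authors' deposited ratios 0.52 (adjusted p = 0.0024) and with the liver channel alone 0.48 (adjusted p = 0.006). Of 31 alternatives, 29 kept Rps27l past the threshold against control, where the adjusted p ran from 0.0012 to 0.219; the exceptions were the fit with no slide block (adjusted p = 0.0599) and the fit with the replicate block in place of slide (adjusted p = 0.219). Against 1 mg/kg it was called in 27 of 31. The 31 alternatives overlap, and some repeat the same fit, so such counts are not independent checks.

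Rps27, which encodes the small subunit protein most like Rps27l, did not pass the test. Its log2 ratio was -1.15, -0.74, -0.83 and -1.13 in controls, and -0.83, -0.60, -0.87, -0.82 and -0.54 at 1 mg/kg. The 8 mg/kg values were -1.00, -0.81, -0.86, -0.97 and -0.66, within the range of the other groups. The difference at 8 mg/kg was 0.09 ± 0.11 (adjusted p = 0.699), and its 4 probes gave differences of 0.04 to 0.13. Within slides 1 to 4 the 8 mg/kg array was higher than the control array each time, by 0.03 to 0.16. The difference between the 2 genes' responses was not tested.

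Rpl12, a protein at the base of the large subunit stalk where elongation factors bind, had the largest difference among the canonical members. It measured -2.35, -1.76, -1.61 and -1.90 in control replicates 1 to 4. At 1 mg/kg it measured -1.80, -1.94, -1.86, -1.54 and -1.65. The 8 mg/kg arrays measured -1.42, -1.48, -1.57, -1.51 and -1.29, all above every control array. The fitted difference was 0.49 ± 0.11 against control, or 1.40-fold (adjusted p = 0.032), and 0.30 ± 0.10 against 1 mg/kg (adjusted p = 0.113). Slide 1, with the low control, gave 0.92 and slides 2 to 4 gave 0.47, 0.13 and 0.39. Without control replicate 1 the difference was 0.35. A second Rpl12 probe gave 0.46 ± 0.12. The call held under 19 of 31 alternatives, with adjusted p from 0.0214 to 0.28.

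Rps14, on the platform of the small subunit, measured -0.94, -0.60, -0.26 and -0.77 in controls and -0.33, 0.00, -0.64, -0.38 and -0.05 at 8 mg/kg. Rpl19, of the large subunit, measured -1.51, -1.07, -0.96 and -1.37 in controls and -0.83, -0.71, -1.16, -0.91 and -0.65 at 8 mg/kg. In both genes the control on slide 1 was lowest and the groups overlapped. The differences were 0.44 ± 0.10 (adjusted p = 0.0342) for Rps14 and 0.42 ± 0.10 (adjusted p = 0.0352) for Rpl19, higher on 4 of 4 slides. The calls held under 14 and 15 of 31 alternatives.

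Rpl7, of the large subunit, measured -1.44, -1.06, -0.79 and -1.14 in controls and -0.93, -0.46, -1.09, -0.86 and -0.71 at 8 mg/kg. Of the 5 arrays at 8 mg/kg, 2 lay above every control array. The difference was 0.36 ± 0.09 (adjusted p = 0.0445), and the 4 probes of the gene gave 0.26 to 0.36. The call held under 8 of 31 alternatives.

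**Figure D4:**
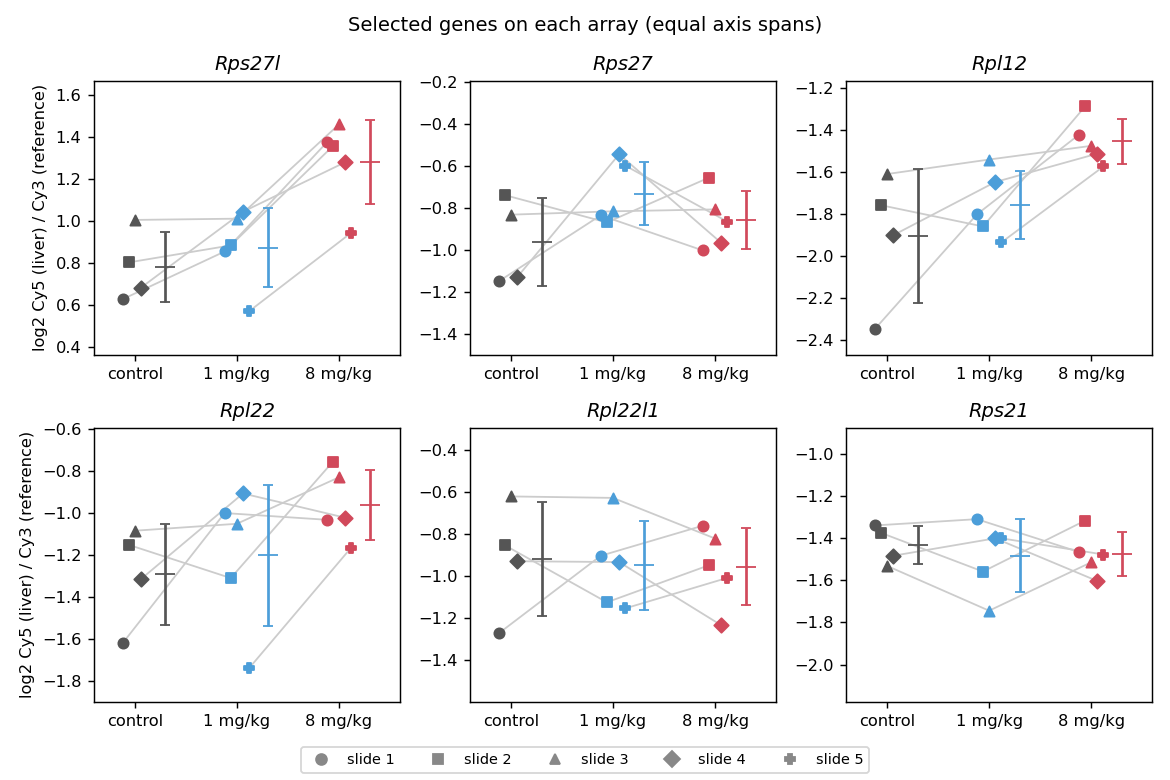
Log2 Cy5/Cy3 ratio of 6 genes on each array (points, shape by slide, arrays of a slide joined by lines), with the mean and SD of each group. On slides 1 to 4 Rps27l and Rps27 were both higher at 8 mg/kg than in control, by 0.45 to 0.75 and by 0.03 to 0.16. Rpl12 at 8 mg/kg lay above all controls, while Rps27l, Rps27, Rpl22, Rpl22l1 and Rps21 overlapped with the controls.

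Rpl37 and Rpl22, both of the large subunit, ranked among the 5 largest differences and did not pass the test. Rpl37 differed by 0.43 ± 0.11 (adjusted p = 0.052). Rpl22 ranged from -1.62 to -1.08 in controls and from -1.16 to -0.76 at 8 mg/kg, a difference of 0.42 ± 0.12 (adjusted p = 0.0719). A second Rpl22 probe, with a lower signal, gave -0.26 ± 0.09, so the 2 probes of this gene went opposite ways. Its paralog Rpl22l1 ranged from -1.27 to -0.62 in controls and from -1.23 to -0.76 at 8 mg/kg, a difference of 0.00 ± 0.12 (adjusted p = 0.993). Rpl22l1 was higher at 8 mg/kg on slide 1 (0.51) and lower on slides 2, 3 and 4 (-0.10, -0.20 and -0.30).

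Probes of a gene mostly agreed. Of 50 members with several probes past the filter, 47 had probes within 0.3 of each other in the difference at 8 mg/kg, and 5 had probes of opposite sign. Of 160 probes 153 were above 0 at 8 mg/kg and 145 at 1 mg/kg. Ribosomal protein genes have many processed pseudogene copies, and whether the probes also detect transcripts of such copies was not tested.

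The members with the lowest differences at 8 mg/kg were Rps21, Rpl22l1, Rps4l, Rpl21 and Rpl3. Rps21, a small subunit protein, measured -1.34, -1.37, -1.53 and -1.48 in controls. The 8 mg/kg arrays measured -1.47, -1.51, -1.48, -1.60 and -1.32, and the difference was -0.05 ± 0.09 (adjusted p = 0.793). Rpl21 differed by 0.02 ± 0.10 (adjusted p = 0.944) and Rpl3, at the peptidyl transferase centre, by 0.08 ± 0.10 (adjusted p = 0.712). Rps4l had the largest SD of all members in controls and at 8 mg/kg, but not at 1 mg/kg, where its SD was 0.32 and that of Rpl39l 0.44. It ranged from 2.79 to 4.99 in controls and from 3.26 to 4.48 at 8 mg/kg, with a difference of 0.00 ± 0.23 (adjusted p = 0.999). Rps4x, the X-linked gene that encodes the regular subunit protein, differed by 0.10 ± 0.09 (adjusted p = 0.565).

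By class, the median difference at 8 mg/kg was 0.27 over the 43 large subunit genes, of which 3 rose and 43 were above 0. Over the 29 small subunit genes it was 0.22, with 2 that rose and 28 above 0. Among all features 2.73% were called higher. The difference between these classes was not tested. The P stalk proteins, which recruit elongation factors to the large subunit, gave 0.30 ± 0.12 for Rplp0, 0.21 ± 0.10 for Rplp1 and 0.19 ± 0.09 for Rplp2. None of the 3 passed the test (adjusted p 0.171 to 0.272).

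Rpl5 and Rpl11, which bind MDM2 together with 5S rRNA, did not pass it either. Rpl5 differed by 0.08 ± 0.09 (adjusted p = 0.659) and Rpl11 by 0.30 ± 0.09 (adjusted p = 0.0735). Rps6, the substrate of S6 kinase, differed by 0.27 ± 0.11 (adjusted p = 0.2). Rps27a, made as a fusion with ubiquitin, differed by 0.25 ± 0.10 (adjusted p = 0.195), and Rpl13a, often used as a reference gene, by 0.10 ± 0.09 (adjusted p = 0.57).

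Among the other paralog pairs, Rpl7l1 measured 0.37, 0.50, 0.54 and 0.58 in controls and 0.93, 0.65, 0.73, 0.94 and 0.73 at 8 mg/kg, without overlap. Its difference of 0.31 ± 0.09 did not pass the test (adjusted p = 0.076), though it did with the liver channel alone (0.35, adjusted p = 0.0264) and with median centring (0.50, adjusted p = 0.0291). Rpl39, at the exit tunnel, differed by 0.21 ± 0.11 (adjusted p = 0.316) and Rpl10, which joins the large subunit late in assembly, by 0.30 ± 0.11 (adjusted p = 0.155). Their germline-enriched relatives Rpl39l and Rpl10l, and the muscle-enriched Rpl3l, were not well above background.

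At 1 mg/kg furan no member passed the test against control, and 0 of 21976 features did (0% called). At an unadjusted p under 0.05, 25 of 79 members were higher and 0 lower, against 4.95% of all features higher and 1.96% lower. The member median was 0.19, beside 0.03 for all features, and 76 of 79 members were above 0, against 60.4% of features. The slides differed: the member median was 0.43 on slide 1, -0.09 on slide 2, 0.03 on slide 3 and 0.36 on slide 4. In 8 of 79 members the 1 mg/kg array was higher on each of the 4 slides, against 10.1% of features, so on this count the members lay at the background. With processed signals the member median was 0.01 (49 of 79 above 0), beside 0.01 for all features (54.1% above 0). With the liver channel alone it was 0.02 (54 of 79), beside 0.01 for all features (54.3%). With the authors' deposited ratios it was 0.07 (70 of 79), beside 0.01 for all features (52.8%). In the reported fit without control replicate 1 the member median was 0.11. The largest differences were those of Rpl10a (0.33 ± 0.12), Rpl29 (0.32 ± 0.11) and Rps10 (0.30 ± 0.12), each with an adjusted p of 0.701. The lowest were those of Rps4l (-0.22 ± 0.23), Rps21 (-0.06 ± 0.09) and Rpl21 (-0.02 ± 0.10).

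Between the 2 furan doses, Rps27l rose and no other member passed the test. This is 1 of 79 members (1.27%), against 5.28% of all features called in either direction, 2.41% called higher and 2.88% called lower. The member median was 0.04, beside -0.02 for all features, and 60 of 79 members were above 0 against 43.6% of features. By slide the member median was 0.02, 0.30, 0.05, -0.16 and 0.01 on slides 1 to 5. Without 1 mg/kg replicate 3 the fitted median was -0.03, and without 1 mg/kg replicate 5 it was 0.10. The comparisons of each dose with control share the 4 control arrays, so the low control arrays enter both.

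The members moved together from array to array after group and slide were fitted. The median correlation between the residuals of a pair of members was 0.80 over 14 arrays with 7 residual degrees of freedom, and 99.8% of pairs were above 0. The first component held 73.7% of the residual variance. Rps29, Rplp1 and Rpl35 followed the mean of the other members most closely (r = 0.99, 0.98 and 0.97), and Rpl7l1, Rpl21 and Rps4l least (0.39, 0.53 and 0.54). All members of an array share its labelling, hybridisation and normalization. No such correlation was computed for other features of like brightness, so whether it is particular to the members was not tested. The median pair correlation was 0.52 with processed signals, 0.41 with the authors' deposited ratios and 0.34 with the liver channel alone. The share of a member's variance that lay between slides had a median of 44.2%, and that between groups 15.9%. Such a share grows with the number of classes even without an effect, and there were more slides than groups. No chance level was computed for either share, so they do not show an effect of dose and cannot be compared with each other.

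**Figure D5:**
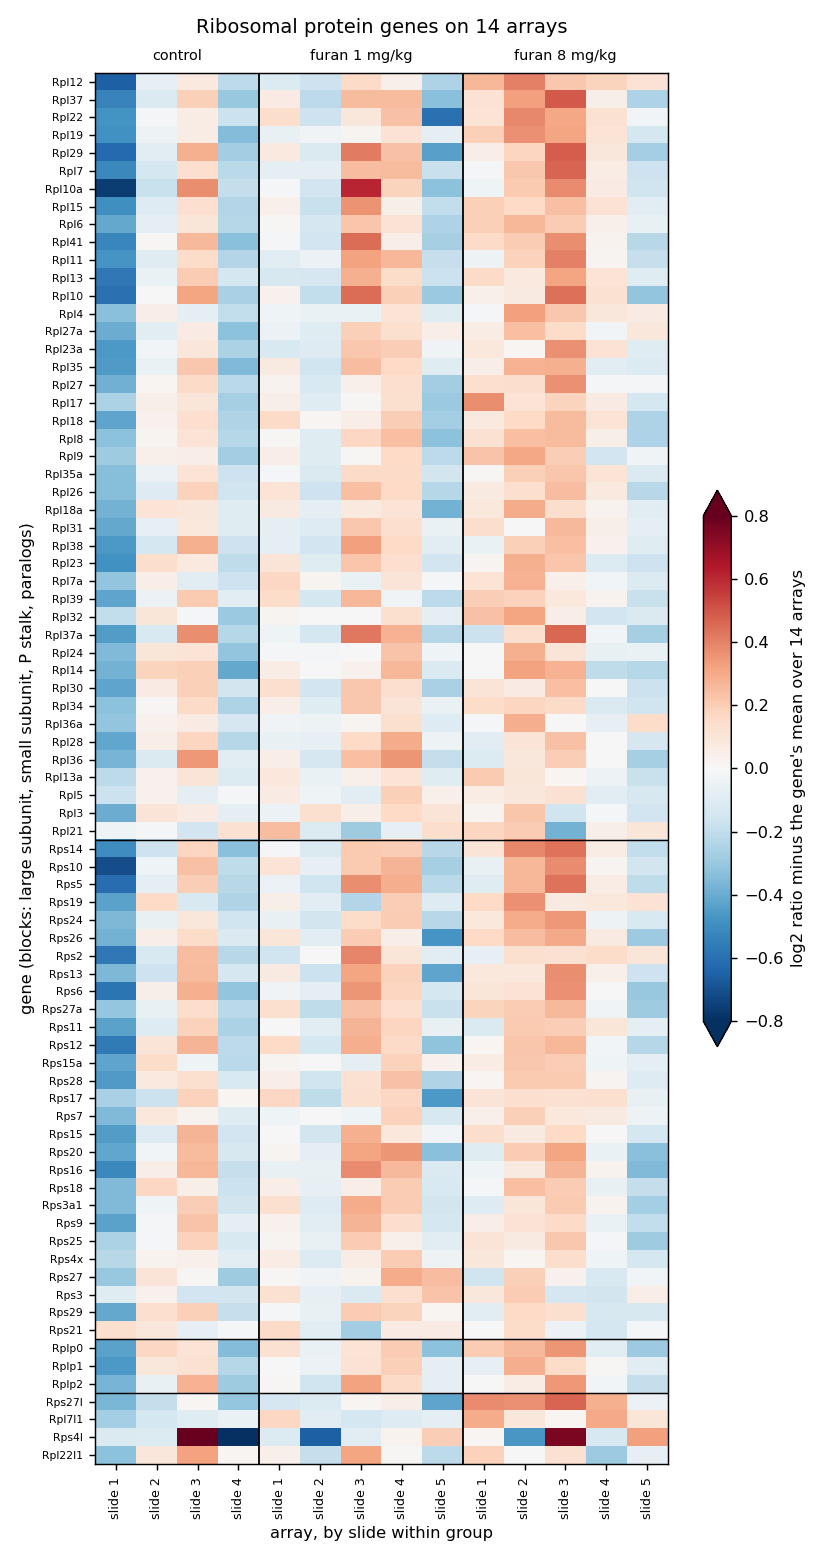
Log2 ratio of 78 of the 79 tested members, each minus its mean over the 14 arrays (colour, limits at ±0.8; Rps4l runs past them), genes by class and by difference at 8 mg/kg, arrays by group and slide. Columns change as a whole: the control on slide 1 is low for most members, and the arrays of slide 3 are high in all 3 groups.

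Of 4 measured ribosomal protein genes whose names fall outside the rule, Rpsa, of the small subunit, rose at 8 mg/kg (0.40 ± 0.10, adjusted p = 0.0388), and Rack1, a scaffold on the small subunit, had 0.38 ± 0.11 (adjusted p = 0.0667). The median of the 4 was 0.32. Among 77 mitochondrial ribosomal protein genes 2 rose, Mrpl45 (0.35 ± 0.08) and Mrps7 (0.33 ± 0.08), a share near the 2.73% of all features called higher, and the median was 0.09. The calls of Rpsa, Mrpl45 and Mrps7 were lost in 19, 11 and 16 of 31 alternatives.

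Ribosome biogenesis genes make rRNA and assemble the subunits in the nucleolus. Of 56 measured, 6 rose at 8 mg/kg against control and none fell, beside 2.73% of all features called higher and 1.36% called lower. They were Nop58 (0.55 ± 0.14, adjusted p = 0.0465), a box C/D snoRNP core protein, Ddx21 (0.42 ± 0.10, adjusted p = 0.0276), a nucleolar helicase, Brix1, Nhp2, Gar1 and Gnl2. Against 1 mg/kg 18 of 56 rose and none fell, beside 2.41% of all features called higher, and Nop58 (0.71 ± 0.13) and Nolc1 (0.63 ± 0.12) had the largest differences. That count of 18 was 1 with the replicate number as a block in place of slide, 3 without slide 1, 6 with no slide block and 8 with median centring. Against control the count was 0 with the replicate block, without slide 1, with no slide block and with only the arrays of the 2 groups, and the calls of Nop58 and Ddx21 were lost in 23 and 13 of 31 alternatives. The list median was 0.19 against control, 0.18 against 1 mg/kg and -0.01 at 1 mg/kg against control. The mean log2 ratio of the list was -0.94 to -0.78 on control arrays, -0.92 to -0.87 at 1 mg/kg and -0.74 to -0.58 at 8 mg/kg, where the 8 mg/kg arrays did not overlap either other group. The list median against control was 0.20 with processed signals, 0.17 with the authors' deposited ratios and 0.22 with the liver channel alone, and the count of genes that rose was 1, 2 and 7, with 1 that fell in the liver channel alone. With median centring it was 0.38 and 19 genes rose, where the median of all features was 0.14. Without control replicate 1 or 2, 1 mg/kg replicate 2, or 8 mg/kg replicate 1, 3 or 5, 0 genes of the list passed the test against control, with list medians of 0.15 to 0.20, and without control replicate 3, 2 genes did. Against 1 mg/kg, 6 to 9 genes rose without any 1 mg/kg replicate or without 8 mg/kg replicate 1, 3 or 5, and 15 to 18 without any other. The difference between the 2 lists was not tested.

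Other lists of the translation machinery are set beside the 2.73% of all features called higher. Of 45 translation factors, Eif3l (0.39 ± 0.09) and Eif5 (0.38 ± 0.09) rose at 8 mg/kg, with a list median of 0.14, and each call was lost in 16 of 31 alternatives. Of 18 other genes with TOP mRNAs Cnbp rose (0.35 ± 0.09), with a list median of 0.14, and the call was lost in 21 of 31. Of 14 genes of RNA polymerase I, Polr1d rose (0.30 ± 0.08), a call lost in 24 of 31. Of 23 genes of the mTOR and S6 kinase pathway, Sesn2, a stress-induced inhibitor of mTOR, rose (0.76 ± 0.12, adjusted p = 0.00269), as did Eif4ebp1 (0.31 ± 0.08). The call of Sesn2 held in all 31 alternatives and that of Eif4ebp1 was lost in 22. None of 5 snoRNA host genes passed the test against control.

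Of 11 measured genes of the MDM2 and p53 axis, 8 rose at 8 mg/kg and none fell, beside 2.73% of all features called higher, and the other 3 did not pass the test. The list median was 0.81. Cdkn1a, the cell cycle inhibitor p21, rose by 2.19 ± 0.17 (adjusted p = 2.26e-05), Aen, an apoptosis-enhancing nuclease, by 1.26 ± 0.10 (adjusted p = 2.26e-05) and Mdm2 by 0.78 ± 0.11 (adjusted p = 0.00114). The same count, 8 of 11, rose against 1 mg/kg, and none passed the test at 1 mg/kg against control.

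The marker counts that follow stand beside 2.73% of all features called higher and 1.36% called lower at 8 mg/kg against control. Markers of dividing cells were higher at 8 mg/kg on some arrays. Of 9 measured, Mcm6 (0.87 ± 0.20) and Pcna (0.34 ± 0.09) rose against control, calls lost in 12 and 24 of 31 alternatives. The list mean was -3.91 to -3.47 in controls, -3.74 to -3.48 at 1 mg/kg and -3.73 to -2.64 at 8 mg/kg. Of 10 hepatocyte markers Cps1 fell by 0.34 ± 0.08, a call lost in 20 of 31 alternatives, and of 4 pancreas markers Amy2a5 fell by 0.73 ± 0.11, a call lost in 2. None of the T and NK cell, B and plasma cell, erythroid, Kupffer cell, cholangiocyte, sinusoidal endothelium, stellate cell or neutrophil markers passed the test against control. In whole liver, a change in cell makeup and a change in mRNA per cell cannot be told apart, and the part of these markers in the ribosomal protein differences was not tested.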

How the data were processed

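Per the file headers, the deposited scanner files held spot intensities (the median of the spot and that of the background around it, red and green) read with Feature Extraction 10.7.3.1, and processed intensities that the software had background-subtracted and dye-normalized. The authors also deposited a table of linear ratios of liver over reference; log2 of its columns correlated at 0.992 to 0.995 with the ratios computed here, and its normalization method is not stated in the labels or headers.

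Intensities were corrected with normexp (offset 50) and normalized by loess within arrays (limma 3.58.1, R 4.3.3). Of 62976 spots, 3671 controls and 178 to 336 outlier spots per array were left out. RefSeq (GRCm38.p6) named 26413 of 55681 probes; it served for names and promoters. Probes had to be well above background in the liver channel on at least 4 of 14 arrays, and the brightest probe stood for a gene. Groups came from the sample titles. Differences (log2, ± SE) were tested with lmFit and eBayes on all arrays with slide as a block, with Benjamini-Hochberg adjustment over all features at 0.05. The fit was tested on simulated data. Alternatives covered background correction, normalization, filters, probe choice, blocks, weights, and each slide or replicate left out. Figures were drawn with matplotlib 3.10.9.

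The members and lists were chosen with earlier results of these data known. Members named were those past the threshold, the 5 highest and 5 lowest differences at 8 mg/kg and 3 and 3 at 1 mg/kg, paralog pairs, stalk and extraribosomal proteins, untested members and the extremes of coherence. Of other lists, genes past the threshold and the 2 largest differences could be named. Replicate numbers were not taken to pair the mice. 1 member is not reported here by name.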

Additional observations from a re-analysis of the deposited data

Results flagged for a closer look

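Among 96 sets of replicate values (each named member and the member median in each group), 2 held 1 array far from the others of its group by Dixon's ratio, where chance flags about 1 in 20 sets. Rpl21 was -1.83 in 8 mg/kg replicate 2 (slide 3), below the other 4 arrays of the group at -1.41 to -1.25. Rpl7l1 was 0.80 in 1 mg/kg replicate 1 (slide 1), above the other 4 arrays at 0.50 to 0.55.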

How the results depend on the processing

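The count of 6 members called at 8 mg/kg against control was 3 with array weights, with the liver channel alone and with slide as a random block, 2 with the authors' deposited ratios and without slide 3, 1 with processed signals, with only the arrays of the 2 groups and without slide 1 (an alternative chosen after seeing the data), and 0 with no slide block. With 1 replicate left out it ran from 1 to 9. At 8 against 1 mg/kg the count of 1 was 3 with the liver channel alone and 0 with median centring, with no slide block and without slide 1. With 1 replicate left out it stayed at 1. Over all features, 899 calls at 8 mg/kg against control became 388 with processed signals and 273 with no slide block.

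Replicate numbers in the labels were not taken to pair the mice. Deviations from the group means of same-numbered arrays on different slides correlated at -0.43 to 0.23. Those of arrays sharing a slide but not a number correlated at 0.12 to 0.66, and those sharing both at 0.086 to 0.245. Such correlations cannot settle whether the mice were paired, which is a matter of the design. With the replicate block in place of slide, 0 members were called in both comparisons of 8 mg/kg, and 122 features in all against control.

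Member medians within a slide that lay over 0.191 (the SD of array medians) from the fitted median were 0.482 on slide 1 at 8 mg/kg, 0.427 on slide 1 and -0.091 on slide 2 at 1 mg/kg, and 0.296 on slide 2 and -0.16 on slide 4 between the doses. The 0.191 is the pooled SD of single arrays within groups, while each within-slide value is a difference between 2 arrays. It therefore does not mark these values as unusual. With 1 replicate left out, the median at 8 mg/kg ran from 0.158 to 0.29, at 1 mg/kg from 0.114 to 0.263 and between doses from -0.025 to 0.097. Aquantile scaling leaves ratios unchanged by construction. No called value changed sign under any alternative run.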
